A study of Mus musculus with 20 samples.

Results

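The genes described here make up the mouse T-cell receptor gamma locus, Tcrg, on chromosome 13. They were the 10 rows of the table, of 39179 in all, whose Ensembl identifier belongs to a constant gene (Tcrg-C1, Tcrg-C2, Tcrg-C3 and Tcrg-C4) or to a variable segment (Tcrg-V1, Tcrg-V2, Tcrg-V4, Tcrg-V5, Tcrg-V6 and Tcrg-V7). The genes were chosen by their group means in this table, chiefly those of Id2-/-Id3-/- CD4SP cells against control, so their means are given as a description, with no test. RNA was sequenced from 20 samples of C57BL/6 mice, and the values are the mean over the libraries of each of 5 groups of counts normalized by the authors. No value per library was used, so no mean below has an SD, and a mean can be carried by a single mouse or tumour.

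Id2-/-Id3-/- CD4SP cells (3 samples) were CD4+TCRb+CD8- thymocytes of mice labelled as double knockouts of Id2 and Id3, which the study made with floxed alleles (Id2 fl/fl Id3 fl/fl) and IL7R-Cre, a driver active from early lymphoid progenitors onward. The Id2-/-Id3-/- lymphomas (6 samples) were CD3+TCRb+ cells, sorted as CD4+ in 4 samples and CD8+ in 2, from lymph node (4), spleen (1) and thymus (1). The sources used here do not give the Cre driver of these tumours. The libraries labelled Id3-/- (3 samples) were CD4+TCRb+CD8- thymocytes. TFH cells (3 samples) were CD4+TCRb+CD44highCXCR5+ spleen cells of wild-type mice, which the study immunized with sheep red blood cells. Control CD4SP cells (5 samples) were CD4+TCRb+CD8- thymocytes labelled wild type, whereas the study's text names Id3+/- or littermate mice. The study's figure of the double mutant gives an age of 8 wk for the CD4SP thymocytes. Every group was sorted for TCRb, so the Tcrg transcripts were measured in cells selected for the other receptor lineage.

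The normalized counts summed to between 1.34e+07 and 1.55e+07 per group, and the depth of single libraries is not known. Id2 averaged 6.82 normalized counts in Id2-/-Id3-/- CD4SP cells and 30.5 in lymphomas, against 2293 in control CD4SP cells. Id3 averaged 879.7 and 857 in those groups, against 1991 in control CD4SP cells, so Id3 RNA was lower but still counted there. Id3 averaged 2649.7 in the libraries labelled Id3-/-, above the control mean, so this measurement does not bear out the label. A count per gene cannot show whether the transcript is intact, so it does not refute the label either. Every direction drawn from these libraries is a direction of libraries so labelled.

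T cells carry either an alpha beta or a gamma delta receptor. The gamma chain gene is assembled in the thymus when RAG proteins join a V segment to a J segment, which is then spliced to the constant gene downstream. In the mouse each Tcrg constant gene has its own J segment and its own V segments, so the locus is a row of small cassettes, and IL-7 receptor signaling through STAT5 and E proteins (the partners that Id proteins hold inactive) are known to open it for transcription and rearrangement. Unrearranged V and C segments can also be transcribed, and mature alpha beta T cells can keep Tcrg rearrangements, so Tcrg RNA is not by itself a sign of a gamma delta receptor.

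The 10 genes lie within 175 kb in the GRCm38 (mm10) build, chr13:19178024-19352756. The first cassette holds Tcrg-V7, Tcrg-V4, Tcrg-V6 and Tcrg-V5 ahead of Tcrg-C1 (chr13:19214103-19217024, forward strand). The cassette of Tcrg-C3 (chr13:19260884-19263528) follows with Tcrg-V3, which was in the table but not among the 10 genes. Tcrg-C2 (chr13:19304649-19307551) and its Tcrg-V2 (chr13:19336573-19337167) lie on the reverse strand. Tcrg-V1 (chr13:19339989-19340454), Trgj4 (chr13:19342152-19342212, the J segment of that cassette, also outside the 10 genes) and Tcrg-C4 (chr13:19344558-19352756) close the locus on the forward strand.

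Several of these genes are close copies, which decides how far counts can be told apart. The first 120 bases of the first constant exon are shown because all 4 constant genes share this exon and differ here by few bases. Sequences are from the GENCODE M21 transcripts on GRCm38, read 5′ to 3′ on the gene's strand, and capitals mark bases that differ from Tcrg-C1 at the same position.
Tcrg-C1 (chr13:19214103-19214222, +): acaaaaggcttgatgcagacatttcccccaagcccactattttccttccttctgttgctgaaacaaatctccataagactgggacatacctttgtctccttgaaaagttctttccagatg
Tcrg-C2 (chr13:19307432-19307551, -): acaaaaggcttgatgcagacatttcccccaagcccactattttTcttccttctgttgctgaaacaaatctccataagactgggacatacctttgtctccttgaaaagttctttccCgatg
Tcrg-C3 (chr13:19260885-19261004, +): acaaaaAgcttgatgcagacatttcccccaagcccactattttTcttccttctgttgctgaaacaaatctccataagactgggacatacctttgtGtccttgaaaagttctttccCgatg
Tcrg-C4 (chr13:19344558-19344677, +): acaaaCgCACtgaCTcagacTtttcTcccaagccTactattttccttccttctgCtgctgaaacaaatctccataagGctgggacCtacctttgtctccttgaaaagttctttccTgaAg

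Over the whole exon of 330 bases, Tcrg-C2 differed from Tcrg-C1 at 9 positions and Tcrg-C3 at 13, whereas Tcrg-C4 differed at 59. Of the 50-base windows of the Tcrg-C4 transcript, 100% occurred in no other Tcrg transcript, against 70.4% for Tcrg-C1, 74.6% for Tcrg-C2 and 63.8% for Tcrg-C3. Tcrg-C4 could thus be told apart along its whole length, whereas the split of counts among the other constant genes is uncertain.

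The ends of the V exons are shown because this is where a V segment is joined to J, and capitals mark differences from Tcrg-V1.
Tcrg-V1 (chr13:19340365-19340454, +): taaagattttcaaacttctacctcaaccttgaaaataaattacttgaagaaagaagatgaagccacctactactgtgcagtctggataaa
Tcrg-V2 (chr13:19336573-19336662, -): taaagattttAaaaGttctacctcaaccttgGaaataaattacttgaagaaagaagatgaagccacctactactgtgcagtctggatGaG
Tcrg-V3 (chr13:19243212-19243301, +): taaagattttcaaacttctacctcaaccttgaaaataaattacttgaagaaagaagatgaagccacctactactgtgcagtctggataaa
Tcrg-V4 (chr13:19185417-19185506, +): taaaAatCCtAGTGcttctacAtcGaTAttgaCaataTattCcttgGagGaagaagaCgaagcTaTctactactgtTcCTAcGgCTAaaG

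Tcrg-V3 matched Tcrg-V1 at all 90 of these bases, Tcrg-V2 differed at 5 and Tcrg-V4 at 28. Over the full V exon Tcrg-V1 was 95.1% identical to Tcrg-V2 and 95.8% to Tcrg-V3, against 70.4% to Tcrg-V4. Tcrg-V5, Tcrg-V6 and Tcrg-V7 were between 52.1% and 56.6% identical to Tcrg-V1. Windows of 50 bases found in no other Tcrg transcript made up 75.4% of Tcrg-V1, 77.6% of Tcrg-V3 and 93.0% of Tcrg-V2, and 100% of Tcrg-V4, Tcrg-V5, Tcrg-V6 and Tcrg-V7. A count for Tcrg-V1, Tcrg-V2 or Tcrg-V3 may thus hold reads of the near-identical copies.

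The J segment that serves Tcrg-V1 and Tcrg-C4 is shown beside that of the first cassette because Trgj4 was the J segment found in the table, with capitals for bases of Trgj4 that differ from Trgj1 (aligned at their 3′ ends).
Trgj1 (chr13:19210343-19210402, +): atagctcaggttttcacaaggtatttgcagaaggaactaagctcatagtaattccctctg
Trgj4 (chr13:19342153-19342212, +): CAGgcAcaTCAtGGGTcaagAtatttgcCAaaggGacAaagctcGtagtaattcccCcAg

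All 10 genes had their highest group mean in Id2-/-Id3-/- CD4SP cells, and the cassette of Tcrg-V1 and Tcrg-C4 stood furthest above control. Tcrg-C4 had a mean of 1717 normalized counts in Id2-/-Id3-/- CD4SP cells, 67.5 in lymphomas, 152 in the libraries labelled Id3-/-, 15.3 in TFH cells and 39.0 in control CD4SP cells. Its mean in Id2-/-Id3-/- CD4SP cells was 44.0 times that of control CD4SP cells. Tcrg-V1, the variable segment used by many gamma delta T cells of mouse spleen and lymph node, averaged 292 in Id2-/-Id3-/- CD4SP cells, 7.66 in lymphomas, 22.8 in the libraries labelled Id3-/-, 0.63 in TFH cells and 3.73 in control CD4SP cells. No group apart from the double mutant thymocytes exceeded 22.8 for Tcrg-V1. On the scale of log2(mean + 1), used below for all ratios called log2, Tcrg-V1 was 5.95 and Tcrg-C4 5.42 above control in Id2-/-Id3-/- CD4SP cells, ranks 38 and 71 from the top among the 15536 genes with at least 1 group mean of 10. With 10 added in place of 1 the value was 4.46 for Tcrg-V1, whose control mean was low, and 5.14 for Tcrg-C4, so the order of these genes rests on the number added.

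Trgj4 was also highest in the double mutant thymocytes. It averaged 25.0 normalized counts in Id2-/-Id3-/- CD4SP cells, 0.75 in lymphomas and 2.83 in the libraries labelled Id3-/-, and it was listed at 0 in TFH and control CD4SP cells. Its sequence above differs from Trgj1 at 19 of 60 bases, and the V, J and C genes of its cassette thus had their highest mean in the same group.

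**Figure D1:**
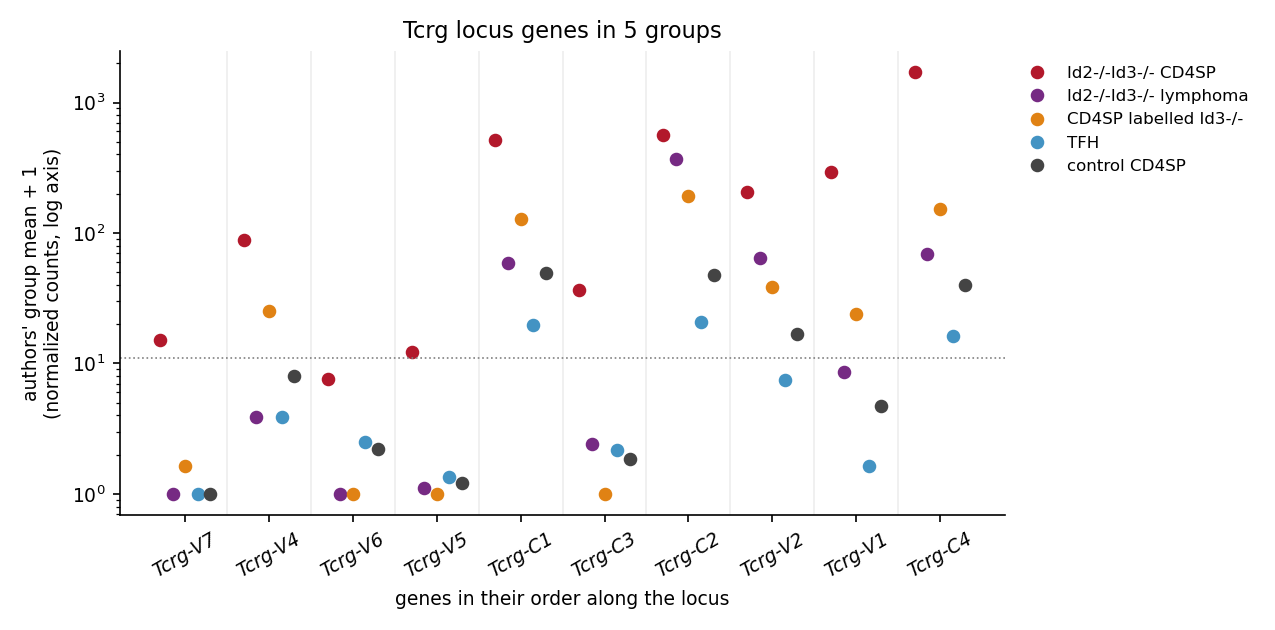
Group means of the 10 Tcrg genes in their order along the locus, in normalized counts with 1 added, on a log axis. Each point is the authors' mean over the 3 to 6 libraries of a group, with no error available, and the dotted line marks a mean of 10. Id2-/-Id3-/- CD4SP cells (red) lie highest for every gene, from 6.63 for Tcrg-V6 to 1717 for Tcrg-C4 before 1 is added.

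Tcrg-C1, the constant gene of the first cassette, averaged 519 normalized counts in Id2-/-Id3-/- CD4SP cells, 57.5 in lymphomas, 126 in the libraries labelled Id3-/-, 18.6 in TFH cells and 48.2 in control CD4SP cells. Tcrg-C2 averaged 561 in Id2-/-Id3-/- CD4SP cells, 365 in lymphomas, 193 in the libraries labelled Id3-/-, 19.7 in TFH cells and 46.3 in control CD4SP cells. The double mutant thymocytes were thus 10.8 times control for Tcrg-C1 and 12.1 times for Tcrg-C2. The lymphomas differed between these near-identical genes, at 1.19 times control for Tcrg-C1 and 7.89 times for Tcrg-C2. Tcrg-C3 averaged 35.3 in Id2-/-Id3-/- CD4SP cells, 1.42 in lymphomas, 1.16 in TFH cells and 0.85 in control CD4SP cells, and it was listed at 0 in the libraries labelled Id3-/-.

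Among the V segments, Tcrg-V2 averaged 206 normalized counts in Id2-/-Id3-/- CD4SP cells, 63.1 in lymphomas, 37.3 in the libraries labelled Id3-/-, 6.44 in TFH cells and 15.8 in control CD4SP cells. Tcrg-V4, used by gamma delta T cells that make IL-17 and by cells of the lung and lymph node, averaged 86.6 in Id2-/-Id3-/- CD4SP cells, 2.88 in lymphomas, 24.3 in the libraries labelled Id3-/-, 2.89 in TFH cells and 6.98 in control CD4SP cells. Both segments were highest in the double mutant thymocytes, and only Tcrg-V2 was also above control in the lymphomas.

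Tcrg-V5 and Tcrg-V6 are the segments of the fetal waves that seed skin and mucosal tissues, and Tcrg-V7 is typical of the intestinal epithelium. They were at or near the lower limit of the table. Tcrg-V7 averaged 14.2 normalized counts in Id2-/-Id3-/- CD4SP cells and 0.63 in the libraries labelled Id3-/-, and was listed at 0 in lymphomas, TFH cells and control CD4SP cells. Tcrg-V5 averaged 11.2 in Id2-/-Id3-/- CD4SP cells and 0.34 or less in every other group. Tcrg-V6 averaged 6.63 in Id2-/-Id3-/- CD4SP cells, 1.50 in TFH cells and 1.22 in control CD4SP cells, and was listed at 0 in lymphomas and in the libraries labelled Id3-/-. Tcrg-V3, outside the 10 genes, averaged 10.4 in Id2-/-Id3-/- CD4SP cells and 0.58 or less elsewhere.

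Means under 10 were found for 1 of the 10 genes in Id2-/-Id3-/- CD4SP cells, 6 in lymphomas, 4 in the libraries labelled Id3-/-, 7 in TFH cells and 6 in control CD4SP cells. The counts below use the 9 genes with at least 1 mean of 10, which leaves out Tcrg-V6. Tcrg-V5 at 11.2 was the member just inside this limit and Tcrg-V6 at 6.63 the member just outside. Tcrg-C3, Tcrg-V5 and Tcrg-V7 reached 10 in the double mutant thymocytes alone, and so had to differ there.

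In Id2-/-Id3-/- CD4SP cells 9 of 9 genes were at least 2-fold above control and 0 were at least 2-fold below. Among all 15536 genes with a mean of 10, 14.1% were at least 2-fold higher and 10.1% at least 2-fold lower in this comparison, which is printed as background because the genes were chosen with it in view. The median log2 ratio was 3.62 over the 9 genes and 3.60 over the 6 that did not pass through this group alone, beside 0.02 over all genes. The smallest log2 ratio of the 9 was 3.35, for Tcrg-V5.

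In lymphomas 2 of 9 genes, Tcrg-C2 and Tcrg-V2, were at least 2-fold above control, 1 was at least 2-fold below and 6 lay within 2-fold. Over all genes 18.2% were at least 2-fold higher and 17.2% at least 2-fold lower, so the share of the locus above control was close to the background. The log2 ratio was 2.95 for Tcrg-C2 and 1.93 for Tcrg-V2, the V and C genes of the reverse-strand cassette. Tcrg-V1 and Tcrg-C4 were at 0.87 and 0.78. Tcrg-V4 was at -1.04 from means of 2.88 in lymphomas and 6.98 in control CD4SP cells, both under 10, and its call was lost when values were set relative to the CD3 genes.

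Of the 9 genes 6 were at least 2-fold above control and 0 at least 2-fold below in the libraries labelled Id3-/-, where the background was 5.57% higher and 4.43% lower. These were Tcrg-V1 (log2 ratio 2.33), Tcrg-C2 (2.03), Tcrg-C4 (1.94), Tcrg-V4 (1.66), Tcrg-C1 (1.37) and Tcrg-V2 (1.19). The other 3 genes had means under 1 in these libraries. The median log2 ratio of the 9 was 1.37, beside -0.01 over all genes.

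TFH cells were at least 2-fold below control for 6 of 9 genes, Tcrg-C1, Tcrg-C2, Tcrg-C4, Tcrg-V1, Tcrg-V2 and Tcrg-V4, at log2 ratios between -1.53 (Tcrg-V1) and -1.04 (Tcrg-V4), and 0 genes were at least 2-fold higher. The background was 9.80% at least 2-fold lower and 11.8% at least 2-fold higher. The levels behind these ratios were small, with TFH means from 0.63 to 19.7 normalized counts, and no gene stayed at least 2-fold lower under both of the following settings. With 10 added in place of 1 it was Tcrg-C1 alone (-1.02), and with values set relative to the CD3 genes Tcrg-V1 alone (-1.32).

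Lymphomas against Id2-/-Id3-/- CD4SP cells, which carry the same genotype label, gave 8 of 9 genes at least 2-fold lower and 0 at least 2-fold higher, where 14.4% of all genes were at least 2-fold lower and 11.1% higher. The filter favors this direction, since 3 of the 8 passed it through the thymocytes alone. Without those 3 genes 5 of 6 were at least 2-fold lower. The choice of the genes, chiefly by their means in these thymocytes, favors this direction for all 9, so the counts are a description only. Tcrg-V1 had a log2 ratio of -5.08, Tcrg-C4 -4.65, Tcrg-V4 -4.50 and Tcrg-C1 -3.15. Tcrg-V2 was at -1.69, and Tcrg-C2, the exception, at -0.62 with 365 normalized counts in lymphomas and 561 in the thymocytes. These comparisons share their control or double mutant samples, so they are not independent of each other.

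The locus as a whole was read from summed means. The 4 constant genes summed to 2832 normalized counts in Id2-/-Id3-/- CD4SP cells, 492 in lymphomas, 471 in the libraries labelled Id3-/-, 54.9 in TFH cells and 134 in control CD4SP cells. The sum was 21.1 times control in Id2-/-Id3-/- CD4SP cells, 3.66 times in lymphomas, 3.51 times in the libraries labelled Id3-/- and 0.41 times in TFH cells. The 6 V segments summed to 617 in Id2-/-Id3-/- CD4SP cells, 73.7 in lymphomas, 85.0 in the libraries labelled Id3-/-, 11.8 in TFH cells and 27.9 in control CD4SP cells. That was 22.1 times control in Id2-/-Id3-/- CD4SP cells, 2.64 times in lymphomas, 3.04 times in the libraries labelled Id3-/- and 0.42 times in TFH cells. The sum is less exposed than single genes to how reads split between copies, and V and C sums stood in the same direction from control in each group. In lymphomas, however, Tcrg-C2 held 74.3% of the C sum and Tcrg-V2 85.6% of the V sum, while 6 of 9 genes lay within 2-fold of control. The lymphoma sums thus describe mainly the reverse-strand cassette and not a rise across the locus.

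The makeup of the locus differed between the groups. Tcrg-C4 held 60.6% of the summed Tcrg-C means in Id2-/-Id3-/- CD4SP cells, 13.7% in lymphomas, 32.3% in the libraries labelled Id3-/-, 28.0% in TFH cells and 29.0% in control CD4SP cells. Tcrg-C2 held 74.3% in lymphomas, 19.8% in Id2-/-Id3-/- CD4SP cells, 40.9% in the libraries labelled Id3-/-, 36.0% in TFH cells and 34.4% in control CD4SP cells. Dividing by exon length left Tcrg-C4 at 58.6% in Id2-/-Id3-/- CD4SP cells, 12.9% in lymphomas and 27.5% in control CD4SP cells. The double mutant thymocytes thus weighed toward the last cassette and the lymphomas toward the reverse-strand cassette.

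The V segments showed the same tilt. Tcrg-V1 held 47.3% of the summed Tcrg-V means in Id2-/-Id3-/- CD4SP cells, 10.4% in lymphomas, 26.8% in the libraries labelled Id3-/-, 5.37% in TFH cells and 13.3% in control CD4SP cells. Tcrg-V2 held 33.5% in Id2-/-Id3-/- CD4SP cells, 85.6% in lymphomas, 43.9% in the libraries labelled Id3-/-, 54.6% in TFH cells and 56.6% in control CD4SP cells. Per exon length the share of Tcrg-V1 was 52.3% in Id2-/-Id3-/- CD4SP cells, 13.1% in lymphomas and 16.1% in control CD4SP cells. The depth behind these shares is not known, so they have no interval.

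**Figure D2:**
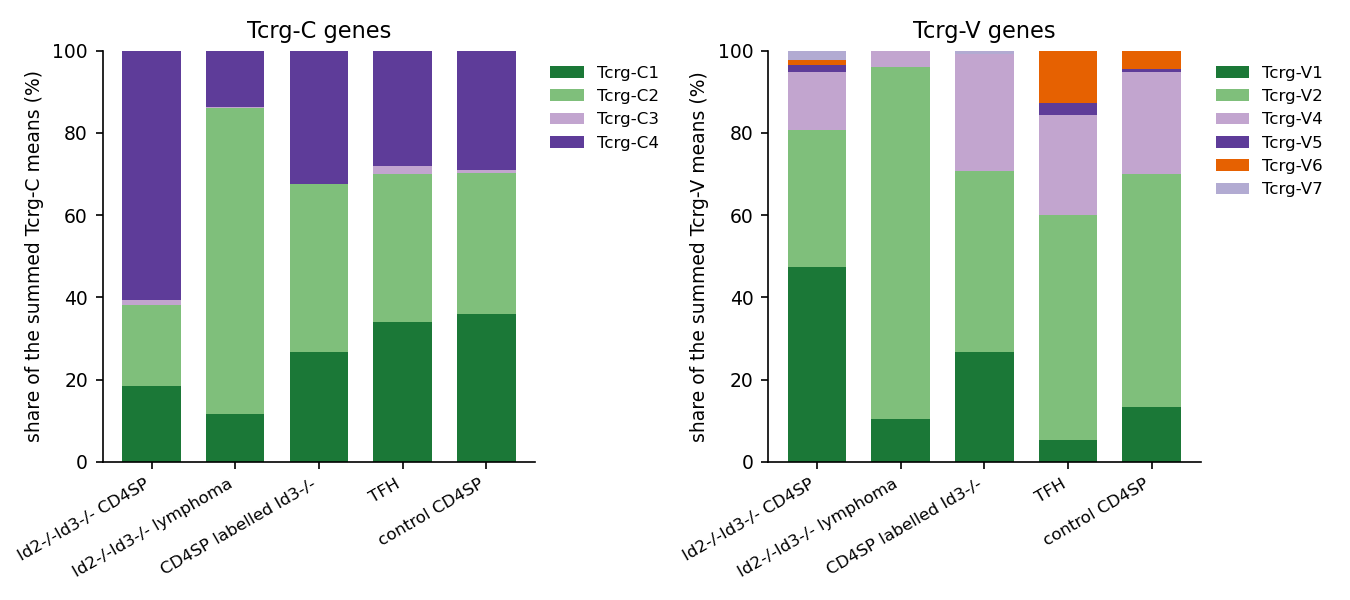
Share of each gene in the summed group means of the 4 Tcrg-C genes (left) and the 6 Tcrg-V genes (right), in percent, for the 5 groups. Each bar is a single set of means. Tcrg-C4 and Tcrg-V1 take 60.6% and 47.3% in Id2-/-Id3-/- CD4SP cells, and Tcrg-C2 and Tcrg-V2 take 74.3% and 85.6% in lymphomas.

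Per kilobase of exon, V segments were below their constant gene in every cassette and group that had a value. For Tcrg-V1 over Tcrg-C4 the ratio per kilobase was 0.45 in Id2-/-Id3-/- CD4SP cells, 0.30 in lymphomas, 0.39 in the libraries labelled Id3-/-, 0.11 in TFH cells and 0.25 in control CD4SP cells. For Tcrg-V2 over Tcrg-C2 it was 0.68 in Id2-/-Id3-/- CD4SP cells, 0.32 in lymphomas, 0.36 in the libraries labelled Id3-/-, 0.61 in TFH cells and 0.64 in control CD4SP cells. For the 4 V segments of the first cassette over Tcrg-C1 it was 0.52 in Id2-/-Id3-/- CD4SP cells, 0.11 in lymphomas, 0.43 in the libraries labelled Id3-/-, 0.56 in TFH cells and 0.38 in control CD4SP cells. In lymphomas the V segments of the first cassette summed to 3.00 normalized counts beside 57.5 for Tcrg-C1. Whether the transcripts were rearranged or germline cannot be read from counts per gene.

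**Figure D3:**
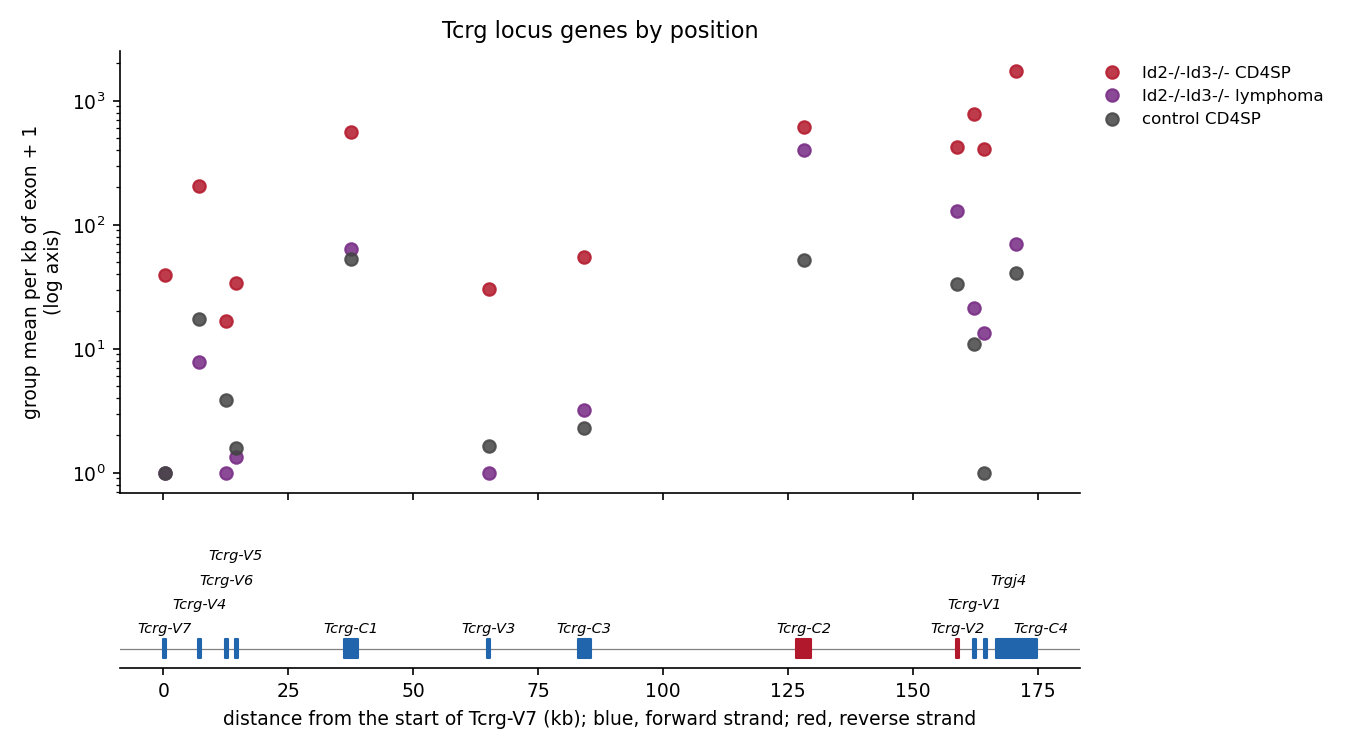
Group means per kilobase of exon, with 1 added, on a log axis, against distance in kilobases from the start of Tcrg-V7, for Id2-/-Id3-/- CD4SP cells (red), lymphomas (purple) and control CD4SP cells (grey), with gene positions and strands beneath. Tcrg-C4, at the right end, reaches 1743 per kilobase in Id2-/-Id3-/- CD4SP cells, and Tcrg-C2, on the reverse strand, is the gene at which lymphomas (399.5) come nearest to them (614).

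Genes of the partner chain were not above control in the groups with high Tcrg means. The TCR delta genes are nested within the alpha locus and supply the chain that pairs with gamma, and 18 of them were in the table, namely 9 Trdv, Trdd and Trdj segments and 9 Trav segments that can also join delta. Trdc, the constant gene of the delta chain, was not analysed here. The 9 Trd segments summed to 6.92 normalized counts in Id2-/-Id3-/- CD4SP cells, 0.39 in lymphomas, 65.4 in the libraries labelled Id3-/-, 42.3 in TFH cells and 65.5 in control CD4SP cells. Trdv2-2 averaged 2.01 in Id2-/-Id3-/- CD4SP cells, against 34.2 in control CD4SP cells, and was listed at 0 in lymphomas. Trdv1 averaged 2.79 in Id2-/-Id3-/- CD4SP cells and 0.39 in lymphomas, against 20.2 in control CD4SP cells. Trdv4 and both Trdd segments were listed at 0 in all 5 groups. The double mutant groups thus had the lowest sums of delta segments. The Tcrg-C sum of lymphomas (492) was close to that of the libraries labelled Id3-/- (471), whose Trd sum was near control. Low Trd sums thus did not go with high Tcrg-C sums across all groups. The study reported enrichment of distally located V-alpha transcripts in the double mutant thymocytes. The part of alpha locus rearrangement in the delta sums was not tested.

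The 11 delta genes with a mean of 10 were 9 Trav/dv segments and 2 Trd segments, Trdv1 and Trdv2-2, so their counts describe mainly Trav/dv segments. Of these 11, 0 were at least 2-fold above control and 7 at least 2-fold below in Id2-/-Id3-/- CD4SP cells (median log2 ratio -1.36), where 10.1% of all genes were at least 2-fold lower. In lymphomas 0 were above and 11 below (median -4.20), where 17.2% of all genes were lower. The filter favors this direction, since all 11 had a control mean of at least 10 and a lymphoma mean of 4.77 or less. In the libraries labelled Id3-/- 0 were above and 1 below (median -0.19, beside 4.43% lower), and in TFH cells 0 above and 3 below (median 0.00, beside 9.80% lower). The 9 Trav/dv segments, which also form alpha chains, summed to 198 normalized counts in Id2-/-Id3-/- CD4SP cells, 9.15 in lymphomas, 317 in the libraries labelled Id3-/-, 407 in TFH cells and 387 in control CD4SP cells. The study reported a restricted alpha beta receptor repertoire in the double mutant thymocytes and in most lymphomas. The part of that repertoire in the Trav/dv means was not tested. The 4 with the largest means were Trav4-4-dv10, Trav14d-3-dv8, Trav6-7-dv9 and Trav21-dv12. Trav4-4-dv10 averaged 52.9 in Id2-/-Id3-/- CD4SP cells and was listed at 0 in lymphomas, against 74.7 in control CD4SP cells. Trav14d-3-dv8 averaged 40.3 in Id2-/-Id3-/- CD4SP cells and 4.77 in lymphomas, against 105 in control CD4SP cells. Trav6-7-dv9 averaged 23.1 and 2.12 in those groups, against 63.8 in control CD4SP cells, and Trav21-dv12 averaged 18.1 and 0.24, against 25.4.

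The alpha and beta chains and the CD3 chains, which both receptor types share, stayed near control in the thymocytes. Of 8 such genes 7 had a mean of 10, and in Id2-/-Id3-/- CD4SP cells 7 of 7 lay within 2-fold of control (median log2 ratio -0.14). Of all genes 14.1% were at least 2-fold higher and 10.1% lower there, so most genes also lay within 2-fold. Trac, the alpha constant gene, averaged 7477 normalized counts in Id2-/-Id3-/- CD4SP cells and 5853 in lymphomas, against 7953 in control CD4SP cells. In lymphomas 2 of 7 were at least 2-fold lower (median -0.44), beside 17.2% of all genes. They were Trbc1, with 1502 against 7492 in control CD4SP cells, and Cd247, with 4062 against 8979. Trbc2 averaged 15389 in Id2-/-Id3-/- CD4SP cells and 19841 in lymphomas, against 18317 in control CD4SP cells. For the CD3 subunit genes in Id2-/-Id3-/- CD4SP cells the log2 ratio was 0.36 for Cd3d, -0.14 for Cd3e and 0.28 for Cd3g. All 7 lay within 2-fold in the libraries labelled Id3-/- (median -0.20) and in TFH cells (median -0.13). Of all genes 5.57% were at least 2-fold higher and 4.43% lower in the former, and 11.8% and 9.80% in the latter. Ptcra, the pre-T alpha chain of immature thymocytes, averaged 2.69 or less in all groups.

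Set against the beta chain, the summed Tcrg-C means amounted to 13.6% of the summed Trbc1 and Trbc2 means in Id2-/-Id3-/- CD4SP cells, 2.30% in lymphomas, 2.15% in the libraries labelled Id3-/-, 0.23% in TFH cells and 0.52% in control CD4SP cells. These are ratios of normalized counts and not of molecules. In RNA of sorted pools, a few cells with much Tcrg RNA and many cells with little cannot be told apart.

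**Figure D4:**
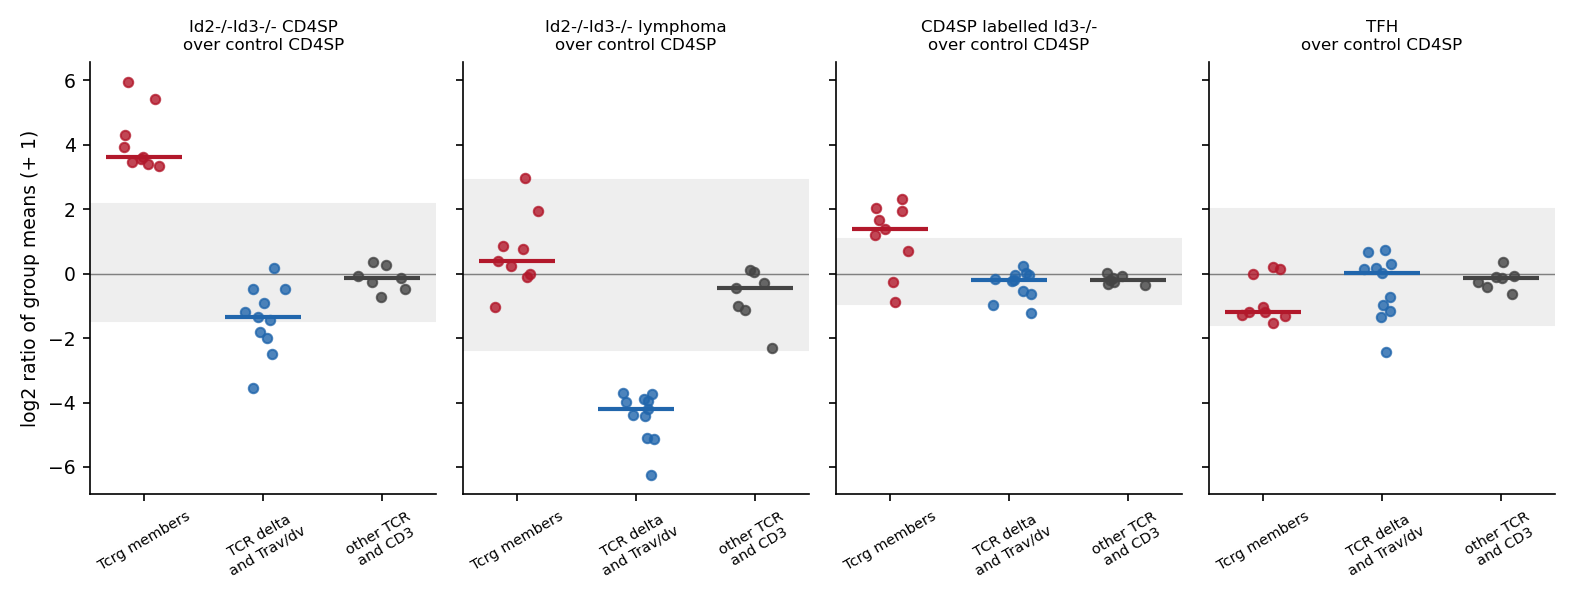
Log2 ratios of group means (1 added) over control CD4SP cells for the 9 Tcrg genes, 11 TCR delta and Trav/dv genes and 7 other TCR and CD3 genes with a mean of 10, in 4 comparisons that share the control samples. Points are genes, bars are medians and the grey band holds the central 90% of all 15536 genes. In Id2-/-Id3-/- CD4SP cells the Tcrg median is 3.62 and the median of the delta and Trav/dv genes, which are mostly Trav/dv, is -1.36.

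Markers of other cells were read beside the locus, as summed means. The 7 alpha beta T cell markers summed to 62932 normalized counts in Id2-/-Id3-/- CD4SP cells, 51051 in lymphomas, 65735 in the libraries labelled Id3-/-, 78717 in TFH cells and 75299.7 in control CD4SP cells, with none under 10. The 8 gamma delta T cell markers in the table, 4 of them Trdv segments, summed to 929 in Id2-/-Id3-/- CD4SP cells, 6694 in lymphomas, 539.8 in the libraries labelled Id3-/-, 126 in TFH cells and 356 in control CD4SP cells, and the 4 Trdv segments were all under 10 in both double mutant groups. The 7 NK cell markers summed to 216 in Id2-/-Id3-/- CD4SP cells and 287 in lymphomas, against 225 in control CD4SP cells, with Ncr1 listed at 0 in Id2-/-Id3-/- CD4SP cells. In the libraries labelled Id3-/- they summed to 4804, of which Eomes, also a gene of innate-like T cells, made up 4727. The 3 iNKT cell markers summed to 4051 in Id2-/-Id3-/- CD4SP cells, 2383 in lymphomas, 858 in the libraries labelled Id3-/-, 109.8 in TFH cells and 159.7 in control CD4SP cells. In the double mutant groups these sums were mostly Zbtb16. Gamma delta T cells can also express Zbtb16, and the study found its protein in TCRb+ thymocytes of the double mutant other than iNKT cells. In TFH cells the NK cell markers summed to 802. The 5 myeloid markers summed to 199 in Id2-/-Id3-/- CD4SP cells, 430.4 in lymphomas, 142 in the libraries labelled Id3-/-, 65.2 in TFH cells and 82.8 in control CD4SP cells. The 6 B cell markers summed to 116 in Id2-/-Id3-/- CD4SP cells, 524 in lymphomas, 57.5 in the libraries labelled Id3-/-, 518 in TFH cells and 94.4 in control CD4SP cells. Cd8a and Cd8b1 summed to 231 in Id2-/-Id3-/- CD4SP cells, 1849 in lymphomas, 2 of which were sorted as CD8+, 425 in the libraries labelled Id3-/-, 202 in TFH cells and 716 in control CD4SP cells. The 7 CD4+CD8+ thymocyte markers summed to 476 in Id2-/-Id3-/- CD4SP cells, 2353 in lymphomas, 751 in the libraries labelled Id3-/-, 257 in TFH cells and 1089.6 in control CD4SP cells. This list includes Cd8a and Cd8b1, and Cd8a alone averaged 1388 in lymphomas. Cd8a and Dntt were above control in lymphomas, and Cd8b1, Rag1, Rag2 and Ptcra below. The 5 DN thymocyte markers summed to 336 in Id2-/-Id3-/- CD4SP cells, 72.1 in lymphomas, 586 in the libraries labelled Id3-/-, 487 in TFH cells and 557 in control CD4SP cells. Myeloid sums were thus highest in the double mutant groups, and B cell sums in lymphomas and TFH cells. The part of these cells in the Tcrg means was not tested.

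Genes of the programme of gamma delta T cells lay on both sides of control in each group. Of 30 symbols listed for it 28 were found in the table, and 25 of these genes had a mean of 10. In Id2-/-Id3-/- CD4SP cells 11 of 25 were at least 2-fold above control and 4 at least 2-fold below (median log2 ratio 0.66), and in lymphomas 12 were above and 2 below (median 0.99). In the libraries labelled Id3-/- 8 were above and 2 below (median 0.25), and in TFH cells 8 were above and 7 below (median 0.21). These shares stand beside the backgrounds of 14.1%, 18.2%, 5.57% and 11.8% given above for genes at least 2-fold higher. In lymphomas against Id2-/-Id3-/- CD4SP cells 15 of 25 lay within 2-fold, 8 were at least 2-fold higher and 2 at least 2-fold lower (median 0.01). The list was written with earlier results of these data known and is no independent evidence.

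Its 4 genes with the largest means were Tcf7, Gzma, Lef1 and Maf. Tcf7, a T cell transcription factor, averaged 13671 normalized counts in Id2-/-Id3-/- CD4SP cells and 18850 in lymphomas, against 27336 in control CD4SP cells. Gzma, a granule protease, averaged 5809 and 21911 in those groups, against 25.2 in control CD4SP cells. Lef1 averaged 17844 and 10624, against 14495 in control CD4SP cells. Maf averaged 417 in both double mutant groups and 11057 in TFH cells, against 188 in control CD4SP cells. Of these 4 genes Gzma had the largest ratio over control in the double mutant groups.

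Other genes of the list are named because of their values. Zbtb16 encodes PLZF, the transcription factor of innate-like T cells including Tcrg-V1 cells. By flow cytometry the study found PLZF in most CXCR5+ CD4SP thymocytes of the double mutant, few of which were iNKT cells. Zbtb16 averaged 3912 normalized counts in Id2-/-Id3-/- CD4SP cells, 2211 in lymphomas, 733 in the libraries labelled Id3-/-, 48.2 in TFH cells and 116 in control CD4SP cells. Sox13, a transcription factor of early gamma delta T cells, averaged 778 in Id2-/-Id3-/- CD4SP cells and 1616 in lymphomas, against 127 in control CD4SP cells. Etv5 averaged 1191 and 3678 in those groups, against 286 in control CD4SP cells. Blk, a Src family kinase of B cells and IL-17 producing gamma delta T cells, averaged 60.8 and 802, against 11.5 in control CD4SP cells. These genes were above control in both double mutant groups, and Sox13, Etv5 and Blk had their highest means in lymphomas, where the Tcrg-C sum was 0.17 times that of the thymocytes. Other genes of the list lay below control. Sox4 averaged 2011 in Id2-/-Id3-/- CD4SP cells and 3615 in lymphomas, against 4770 in control CD4SP cells. Ccr6 averaged 14.4 and 3.71 in those groups, against 36.7, and Relb 597 and 395, against 1159.

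Cd163l1 and 5830411N06Rik, scavenger receptor genes known from gamma delta T cells, separated the groups differently. Cd163l1 averaged 40.7 normalized counts in Id2-/-Id3-/- CD4SP cells and 966 in lymphomas, against 96.7 in control CD4SP cells. 5830411N06Rik averaged 43.8 and 3309 in those groups, against 59.5 in control CD4SP cells. Neither was thus above control in the thymocytes with the highest Tcrg means, and both were far above it in the lymphomas. Il17a averaged 7.05 or less in every group.

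Genes known to act on Tcrg transcription and rearrangement lay below control more often than above it in both double mutant groups. Of 28 listed, all in the table, 26 had a mean of 10. In Id2-/-Id3-/- CD4SP cells 1 was at least 2-fold above control and 8 at least 2-fold below (median log2 ratio -0.48), beside 14.1% and 10.1% of all genes. The counts were the same in lymphomas (median -0.53), beside 18.2% and 17.2%. Id2 and Id3, the genes deleted in these mice, were among the 8 in both groups, a direction that the genotype fixed in advance. Their log2 ratios were -8.20 and -1.18 in Id2-/-Id3-/- CD4SP cells and -6.19 and -1.22 in lymphomas. In the libraries labelled Id3-/- 1 was above and 2 below (median -0.07, beside 5.57% and 4.43%), and in TFH cells 1 was above and 4 below (median -0.28, beside 11.8% and 9.80%). The 4 with the largest means were Ets1, Il2rg, Jak1 and Bcl11b. Their log2 ratios in Id2-/-Id3-/- CD4SP cells were -0.97 for Ets1, -0.40 for Il2rg, the shared cytokine receptor chain, -0.39 for Jak1, the kinase bound to IL-7 receptor alpha, and -1.03 for Bcl11b, a factor of T cell commitment. In lymphomas they were -0.75, -0.69, 0.03 and -1.20.

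Within this list, the genes that follow are named because of their values. Il7r, the IL-7 receptor alpha chain, averaged 311 normalized counts in Id2-/-Id3-/- CD4SP cells, 3392 in lymphomas, 4070 in the libraries labelled Id3-/-, 1538 in TFH cells and 3997 in control CD4SP cells. The group with the highest Tcrg means thus had the lowest Il7r mean. The mice of that group carried the IL7R-Cre allele, and its part in their Il7r mean was not tested. Stat5a and Stat5b had log2 ratios of 0.05 and -0.07 in Id2-/-Id3-/- CD4SP cells, and Tcf3 and Tcf12, which encode E proteins, -0.73 and 0.05. Tcf4, also an E protein gene, averaged 42.7 in Id2-/-Id3-/- CD4SP cells and 27.7 in lymphomas, against 252 in control CD4SP cells (log2 ratios of -2.53 and -3.14). Myb averaged 6351 in Id2-/-Id3-/- CD4SP cells and 6336 in lymphomas, against 694 in control CD4SP cells, and was the gene at least 2-fold above control in both. Runx3 averaged 118 and 399 in those groups, against 1154 in control CD4SP cells. Rag1, needed for new rearrangements, averaged 13.4 in Id2-/-Id3-/- CD4SP cells and 0.42 in lymphomas, against 14.2 in control CD4SP cells, and Rag2 averaged 2.45 or less in all groups.

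**Figure D5:**
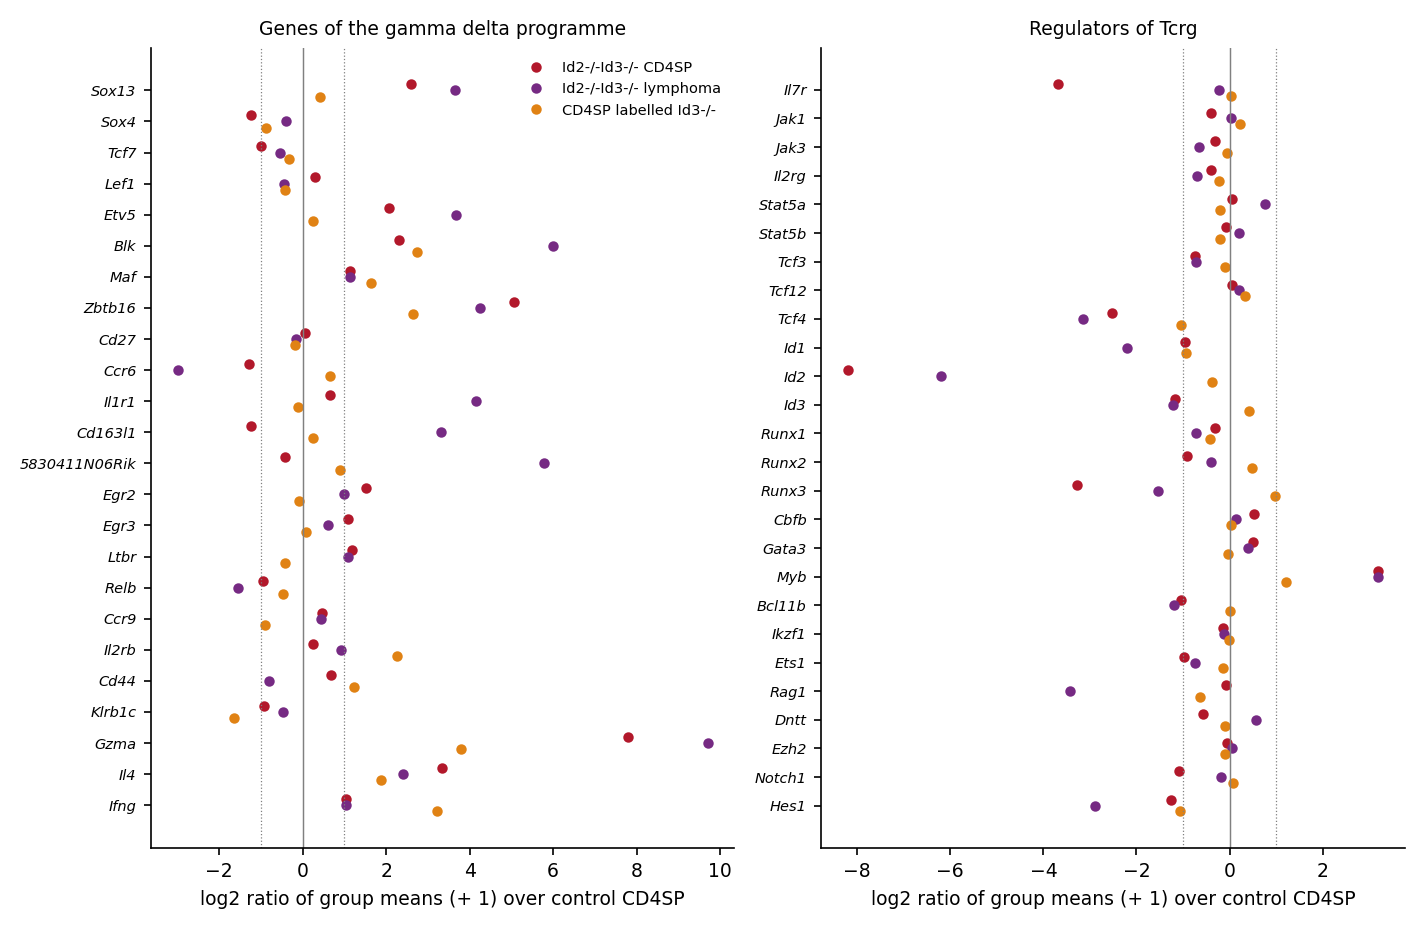
Log2 ratios of group means (1 added) over control CD4SP cells for genes of the gamma delta programme (left) and 26 regulators of Tcrg (right) with a mean of 10, for Id2-/-Id3-/- CD4SP cells (red), lymphomas (purple) and the libraries labelled Id3-/- (orange), which share their control samples. Dotted lines mark 2-fold. Blk and 5830411N06Rik lie furthest right in lymphomas after Gzma, and Il7r lies at -3.68 in Id2-/-Id3-/- CD4SP cells.

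The genes with group profiles closest to the locus were found among 10560 genes with a largest mean of at least 100, by Euclidean distance between centred log2(mean + 1) profiles over the 5 groups. The nearest to the summed Tcrg-C means were Adh1 (distance 1.16), 9530036M11Rik (1.21), Klra3 (1.24), Samd13 (1.28), Lox (1.35), Drc1 (1.38), C78197 (1.39), Cadm4 (1.39), Hmga2 (1.39) and Pdlim4 (1.40), beside a median distance of 4.37 over all genes compared. Adh1, an alcohol dehydrogenase, averaged 2038 normalized counts in Id2-/-Id3-/- CD4SP cells, 350.0 in lymphomas, 167 in the libraries labelled Id3-/-, 54.9 in TFH cells and 122 in control CD4SP cells. Klra3, an NK receptor of the Ly49 family, averaged 281 in Id2-/-Id3-/- CD4SP cells, 100.1 in lymphomas, 43.1 in the libraries labelled Id3-/-, 2.63 in TFH cells and 16.9 in control CD4SP cells. With 5 points per profile, these distances are descriptions of shape over means that share their libraries.

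Nearest to Tcrg-V1 were Rpl9-ps4 (distance 1.24), Gm20425 (2.17), 9530036M11Rik (2.19), Unc80 (2.34), Cthrc1 (2.35), Dusp3 (2.44), Cdkn2a (2.45), Adh1 (2.49), Ybx2 (2.52) and Hmga2 (2.55), beside a median of 5.77. Cdkn2a, which encodes cell cycle inhibitors, averaged 192 normalized counts in Id2-/-Id3-/- CD4SP cells, 6.01 in lymphomas, 17.3 in the libraries labelled Id3-/-, 7.10 in TFH cells and 2.57 in control CD4SP cells. Adh1, 9530036M11Rik and Hmga2, which encodes a chromatin protein of progenitor and tumour cells, were on both lists.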

How the data were processed

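RNA from 20 sorted samples in 5 groups was measured by strand-specific Illumina RNA-seq. The authors aligned reads to mm10 with OSA in Array Studio, counted transcripts with RSEM and normalized with DESeq (tool versions were not given in the sources used here). Each deposited signal value is the average of these normalized counts over the libraries of a group, in 5 columns, with 0 columns per sample. RSEM divides reads that match several copies, which bears on near-identical Tcrg genes. The table also lists 5285 genes at 0 in all groups. Its 12 further columns hold the authors' fold changes, p-values and false discovery rates and were not used.

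Group labels placed all 20 samples. Genes with at least 1 group mean of 10 were kept. Ratios are log2 after adding 1, and at least 2-fold apart on this scale counts as apart. With only means no test was possible. Members and gene lists were chosen with earlier results of these data known. Named genes were all members, lists of up to 10 genes in full, otherwise the 4 with the largest mean, and the 10 nearest profiles. Other genes named for their values are marked so in the text, and 1 gene counted in the lists is not reported here. Alternatives were 4-fold, no filter, a mean of 100, equal column sums, 10 added, division by exon length and values relative to CD3 genes, and a mean of 10 in either compared group (chosen after seeing the data). Code was tested on simulated data. Symbols came from GENCODE M21 (GRCm38), Tcrg-V2 from a RefSeq synonym, with Python 3.11.15, pandas 2.3.3, numpy 2.4.6, Biopython 1.88 and matplotlib 3.10.9.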

Additional observations from a re-analysis of the deposited data

How the results depend on the processing

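No paired analysis was possible because the table holds group means without values per library, and leaving out single libraries was not run for the same reason. A change of at most 1.5 times was taken as none, since there is no replicate spread. The 30 alternatives for the log2 ratios of the summed Tcrg-C and Tcrg-V means and the 10 for the shares of Tcrg-C4 and Tcrg-V1 stayed within that limit. Of the 35 counts of genes at least 2-fold apart, 28 stayed within it, among them 2 for lymphomas (3 as reported) and 4 for TFH cells (6) with a mean of 10 required in either compared group, an alternative chosen after seeing the data. With a mean of at least 100 in some group the count in Id2-/-Id3-/- CD4SP cells over control was 5 of 5 (9 of 9 as reported) and in lymphomas over those thymocytes 4 of 5 (8 of 9). At 4-fold it was 1 for lymphomas (3 as reported), 2 for the libraries labelled Id3-/- (6) and 0 for TFH cells (6), all over control. For TFH cells it was 1 with 10 added, and 1 relative to the CD3 genes, also chosen after seeing the data. Relative to the CD3 genes, lymphomas had 4 genes above and 0 below control. Of 150 values for single genes 21 moved beyond the limit, all with 10 added, and 0 changed sign. Tcrg-V1 in Id2-/-Id3-/- CD4SP cells over control was 4.46 then, and 5.95 as reported. Scaling to the CD3 genes shifted the median of all genes by 0.55 in lymphomas and 0.33 in TFH cells over control, and equal column sums by -0.20 in lymphomas. Library depth and replicate error are not known, so means under 10 and differences near 2-fold are the least certain values.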

Other observations

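The genes around the Tcrg locus were read from all genes of the table within 1 Mb of either end. Of 12 such genes 6 had a mean of 10, and 3 of these were at least 2-fold above control in Id2-/-Id3-/- CD4SP cells, and 3 in lymphomas, with 0 below in either, beside 14.1% and 18.2% of all genes at least 2-fold higher. Gpr141 reached 10 in lymphomas alone and Amph in both double mutant groups alone, so they passed through groups where they were high. Amph, which encodes amphiphysin and ends 27.1 kb before Tcrg-V7, averaged 35.8 normalized counts in Id2-/-Id3-/- CD4SP cells and 85.8 in lymphomas, against 2.14 in control CD4SP cells. Epdr1, 239 kb beyond Tcrg-C4, averaged 67.3 and 24.6 in those groups, against 4.35 in control CD4SP cells. Gpr141, a G protein coupled receptor gene 397 kb beyond Tcrg-C4, averaged 8.39 and 115, against 2.64 in control CD4SP cells.

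The gene nearest to Tcrg-C4 lay within 2-fold of control. Stard3nl, 4.92 kb beyond it, averaged 312 normalized counts in Id2-/-Id3-/- CD4SP cells and 195 in lymphomas, against 283 in control CD4SP cells. Vps41 averaged 578 and 619 in those groups, against 690.2 in control CD4SP cells, and Elmo1 1783 and 2087, against 1619.6 in control CD4SP cells.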
